A study of Mus musculus with 16 samples.

Results

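T-box transcription factors bind DNA through a shared domain, the T-box, and pattern the heart from its first segments to its adult chambers and conduction system. The group described here was chosen by name and holds *Tbx1*, *Tbx2*, *Tbx3*, *Tbx4*, *Tbx5*, *Tbx15*, *Tbx18* and *Tbx20*. Every probe that the array's annotation assigns to 1 of these 8 genes was taken, which gave 10 of the 55681 probes and 8 of the 31982 gene names on the array. *Tbx20* had 3 probes, and each of the others had 1. Of the 10 probes, 8 (of 6 genes) were well above background on all 4 arrays of at least 1 group, against 40.0% of all probes, and 2 were at background on all 16 arrays.

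RNA came from cardiomyocytes (CMs) of wild-type CD1 mice, sorted by how much integrin α6 (ITGA6, CD49f) they carried on the surface. EL and EH denote the ITGA6-low and the ITGA6-high cells of embryonic day (E) 15.5, both gated on the receptor ERBB-2. PL and PH denote the low and high cells of postnatal day (P) 2, for which magnetic depletion of non-myocytes took the place of the ERBB-2 gate. Each group had 4 samples (numbers 2, 3, 6 and 8 at E15.5, numbers 2, 3, 4 and 5 at P2), and each sample was 1 pool of hearts hybridized to 1 array. The question was which chamber's CMs each ITGA6 level marks. Signals are background-subtracted fluorescence, normalized by quantiles over the 16 arrays, and have no physical unit. The number of arrays limits the precision.

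In the embryonic heart, TBX5 switches on chamber genes together with NKX2-5 and GATA4, and it is needed for the atria and the septa. TBX20 acts in all working chamber myocardium as an activator and a repressor. TBX2 and TBX3 do the opposite of TBX5 at shared target genes and keep the atrioventricular canal, the sinus node and the conduction system from becoming working myocardium. TBX18 marks the sinus venosus and the epicardium, TBX1 the pharyngeal and second-field progenitors, TBX4 the lung and hindlimb, and TBX15 parts of the skeleton and skeletal muscle.

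The fractions differed in chamber markers, which were chosen with earlier results of these data known and include *Itga6*, the gene of the sorted protein. Of 6 atrial markers, 5 were higher in EH than in EL and 5 were higher in PH than in PL, the exception at both stages being the brighter *Itga6* probe (log2 difference 0.57 and 0.11), which stands for the gene in the list. The other *Itga6* probe, assigned to the RefSeq transcript, was 19.1-fold higher in EH and 22.8-fold higher in PH. All 5 ventricular markers were lower in EH and in PH. The ventricular light chain *Myl2* remained at a mean of 97505 in EH (2.23-fold under EL) but at 24196 in PH (9.02-fold under PL). The summed signal of the 5 ventricular markers thus had a median of 172168 in EH and 31131 in PH. This difference between the stages lies beside every comparison of E15.5 with P2 below, and its part in those results was not tested.

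The probes are 60-base DNA oligonucleotides, and the first 30 bases are printed for the 5 genes with a probe that passed the test in a fraction comparison, in lower case, with the probe's span in mm9. They are shown because each value below is the signal of that sequence alone, and because the 3 *Tbx20* probes are assigned to different transcript variants.
*Tbx5*, chr5:120334087-120334146, forward strand: aaatacctacctccgtcatgtgagatgtct
*Tbx20* variant 1, chr9:24527750-24527809, reverse strand: gtagttggtttccagacaaaatacagatgt
*Tbx20* variant 2, chr9:24544715-24544774, reverse strand: ggggacctttgaagaactgatgtgaaagaa
*Tbx20* variant 3, chr9:24563177-24563236, reverse strand: agaattcaggacgttcatctttccagagac
*Tbx2*, chr11:85655391-85655450, forward strand: tttttgctccagagggagaacgaagcgaga
*Tbx3*, chr5:120134511-120134570, forward strand: ctttatggtgttttggattggtgtactgag
*Tbx18*, chr9:87599514-87599573, reverse strand: gtgcagaagctggttaaatcttagtatatt
The transcript accession of all 10 probes is listed by RefSeq under the same symbol, and the variant numbers are those of RefSeq. Which exon or untranslated stretch a probe reads was not examined here.

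Across the fractions, *Tbx5* was higher in ITGA6-high cells at both stages, *Tbx2* was also higher at both, and *Tbx3* changed its direction between them. At E15.5, 3 of the 10 probes were higher in EH at an adjusted p of at most 0.05 (*Tbx5*, *Tbx2* and *Tbx3*), where 4.27% of all probes were, and 1 (*Tbx18*) was lower, where 3.83% of all probes were. With a change of at least 3-fold added, 1 probe (*Tbx5*) was called higher and 0 lower, against 1.17% and 0.454% of all probes. At P2, 5 probes were higher in PH (*Tbx5*, *Tbx2* and all 3 of *Tbx20*), against 6.15% of all probes, and 1 (*Tbx3*) was lower, against 5.41%. With the 3-fold limit, 2 were higher (*Tbx5* and *Tbx2*), against 1.73%, and 0 lower, against 0.916%. Counting instead the probes whose arrays did not overlap, 4 were higher in EH (7.02% of all probes) and 1 lower (9.08%), and 4 were higher in PH (6.54%) and 1 lower (6.27%). Adjusted p-values are from limma with Benjamini-Hochberg adjustment over all 55681 probes, except where another test is named.

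**Figure D1:**
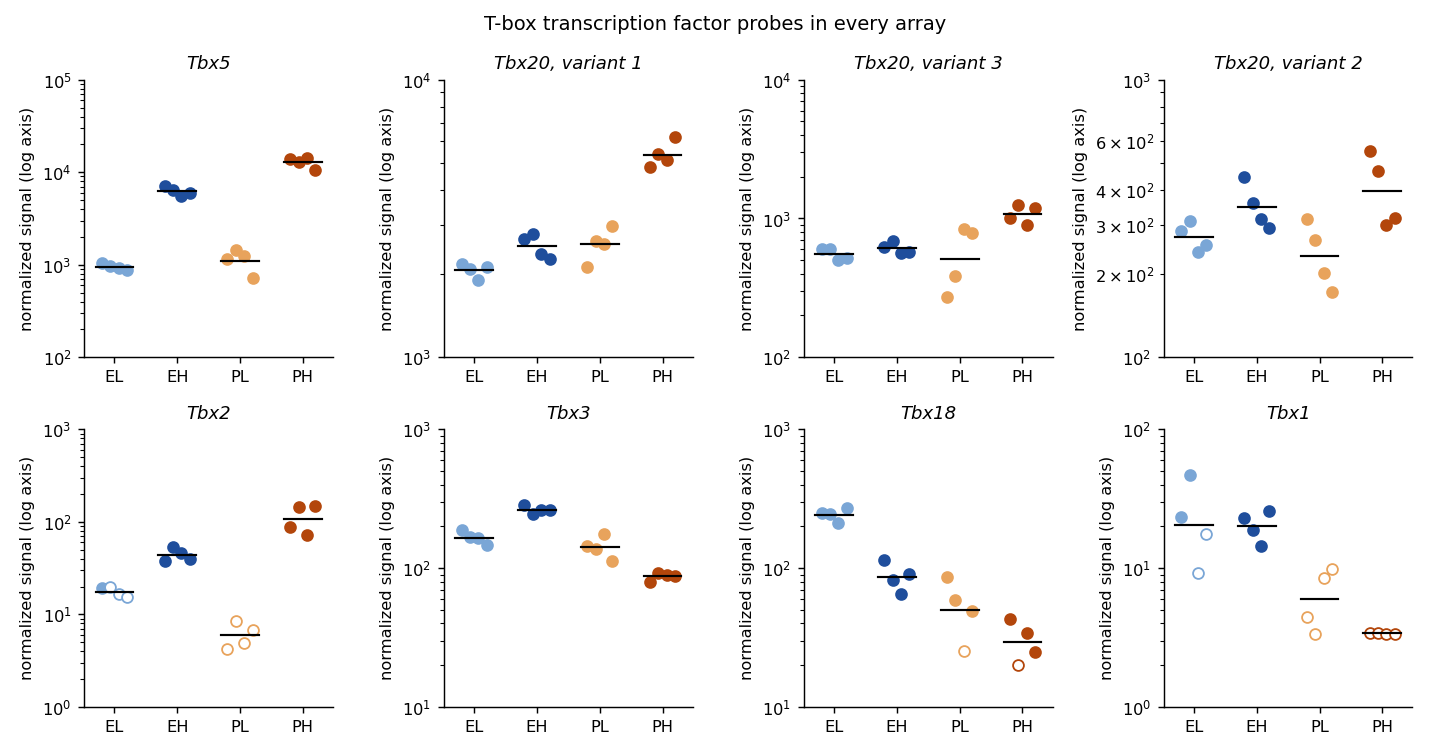
Normalized signal (logarithmic axis) of the 8 T-box probes that were above background on at least 1 array, with 1 point per array in EL, EH, PL and PH. Filled points were well above background, open points were not, and lines are the means of the log2 signals; *Tbx5* separates the fractions at both stages, while *Tbx3* is highest in EH and lowest in PH.

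*Tbx5*, the activator of the atrial and chamber programme, had the smallest adjusted p of the 10 probes in both fraction comparisons. The EL samples read 1041, 966, 928 and 871 (numbers 2, 3, 6 and 8) and the EH samples 7170, 6491, 5519 and 5984. The PL samples read 1149, 1460, 1240 and 713 (numbers 2, 3, 4 and 5) and the PH samples 13887, 12871, 14079 and 10560. The lowest array of either high fraction thus lay several-fold above the highest array of both low fractions. The difference was 6.59-fold at E15.5 (log2 2.72 ± 0.18 SE, n = 4 per group, limma adjusted p = 5.95e-07) and 11.6-fold at P2 (log2 3.53 ± 0.18, limma adjusted p = 1.83e-08). In such sorted bulk samples, fewer cells of a type and less RNA per cell cannot be told apart.

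The order of *Tbx5* was PH, EH, PL, EL. PH exceeded EH 2.04-fold (log2 1.03 ± 0.18, limma adjusted p = 0.000943) without overlap, whereas PL and EL overlapped and did not differ beyond their spread (log2 0.22, 95% confidence interval -0.17 to 0.60). The fraction difference was larger at P2 than at E15.5 by 0.81 on the log2 scale (95% confidence interval 0.26 to 1.36), with a limma adjusted p of 0.131. With the sample number as a block at both stages, this adjusted p was 0.0431. With normexp background correction, which also adds an offset of 50 to every signal, it was 0.0304. Since all P2 arrays lay on 1 slide, and the E15.5 arrays on 2 others, and the cells were isolated by different protocols, stage cannot be told apart from slide or protocol in this or any later comparison of the stages. Without sample 5 of PL, *Tbx5* was higher in PL than in EL by 0.43 on the log2 scale (limma adjusted p = 0.0280). The 2 slides of E15.5 gave *Tbx5* log2 differences of 2.78 and 2.54 between EH and EL.

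*Tbx20*, expressed in working myocardium of both chambers, was measured by 3 probes whose levels are not compared with each other. With the variant 1 probe, the EL samples read 2163, 2085, 1903 and 2118 and the EH samples 2674, 2789, 2364 and 2264. The PL samples read 2119, 2620, 2557 and 2982 and the PH samples 4837, 5404, 5132 and 6228. PH stood alone above the other 3 groups, which lay close together. The difference between PH and PL was 2.11-fold (log2 1.08 ± 0.11, limma adjusted p = 1.15e-05) and that between PH and EH 2.14-fold (log2 1.10 ± 0.11, limma adjusted p = 8.22e-06).

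At E15.5 the same probe was 1.22-fold higher in EH (log2 0.28 ± 0.11), without overlap but with a limma adjusted p of 0.166. With the sample number as a block, which pairs EL and EH, its adjusted p was 0.0426. The fraction difference of variant 1 was larger at P2 by 0.79 on the log2 scale (95% confidence interval 0.46 to 1.13, limma adjusted p = 0.0113). This call was lost when arrays were scaled to their 75th percentile (0.76, adjusted p = 0.147). PL exceeded EL by 0.30 on the log2 scale with an adjusted p of 0.0708, and it passed with normexp (0.0465), over detected probes alone (0.0342) and without sample 2 of PL (0.0158).

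The other *Tbx20* probes went the same way at P2 with wider spread. With the variant 3 probe, the PL samples read 273, 382, 837 and 784 and the PH samples 1004, 1248, 895 and 1193, a 2.10-fold difference (log2 1.07 ± 0.29, limma adjusted p = 0.0249). Its difference between PH and EH (log2 0.82) had a limma adjusted p of 0.0705 and passed under 4 settings with all arrays kept (0.0252 to 0.0457). Its PL samples fell into a lower pair (2 and 3) and a higher pair (4 and 5), and all lay below PH. With the variant 2 probe they read 315, 265, 201 and 172 against 553, 468, 299.8 and 317, with overlap, a 1.71-fold difference (log2 0.77 ± 0.23, limma adjusted p = 0.0406).
At E15.5 the variant 3 probe had a range of 500.5 to 606 in EL against 567 to 685 in EH, and the variant 2 probe one of 239.9 to 310.4 against 292 to 446, both with overlap (limma adjusted p = 0.891 and 0.477). Both P2 calls were near the limit and were lost in the methods' own test (adjusted p = 0.0540 for variant 3 and 0.0827 for variant 2), that of variant 3 also with the sample number as a block (0.0504) and that of variant 2 with the slide as a block (0.0530). The variant 3 call was also lost without sample 2 or 3 of PL or 3 or 5 of PH (adjusted p up to 0.0751). The variant 2 call was lost without sample 4 or 5 of PL, 2 or 3 of PH, 3 or 6 of EH or any sample of EL (adjusted p up to 0.117).

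*Tbx2*, a repressor of chamber genes, was dim, and its PL signals were at background. The EL samples read 19.2, 20.0, 16.4 and 15.5 and the EH samples 37.7, 53.5, 46.5 and 39.7. The PL samples read 4.26, 8.58, 4.93 and 6.82 and the PH samples 88.3, 146, 71.5 and 149.5. All EH and PH arrays were well above background, but only sample 2 of EL was, and none of PL. The groups did not overlap in any neighbouring pair of the order PH, EH, EL, PL, but the step from EL to PL rests mostly on signals at background.

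The *Tbx2* difference between EH and EL was 2.48-fold (log2 1.31 ± 0.26, limma adjusted p = 0.00493), with 1.32 and 1.36 on the 2 slides. With normexp and its offset of 50, which is larger than most of these signals and shrinks differences between dim ones, it was 0.34 on the log2 scale with an adjusted p of 0.0676. Since no PL array was above background, PH was at least 5.60-fold higher than PL, the bound being set against the lowest signals that were well above background in PL (measured log2 difference 4.19 ± 0.26, limma adjusted p = 1.02e-07). PH exceeded EH 2.47-fold (log2 1.30 ± 0.26, limma adjusted p = 0.00244). PL was lower than EL with a limma adjusted p of 0.000463, but the bound gave no fold, with normexp the call was lost (adjusted p = 0.237), and with a floor on dim signals the direction turned (log2 0.13).

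The fraction difference of *Tbx2* was larger at P2 than at E15.5 by 2.88 on the log2 scale (95% confidence interval 2.10 to 3.67, limma adjusted p = 0.000518). That value uses PL signals that were not above background. With a floor on dim signals it was 1.18 (adjusted p = 0.0566), and with normexp and its offset 0.81.

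*Tbx3*, the close relative of *Tbx2* and the repressor that maintains the conduction system, was the member whose direction changed between the stages. The EL samples read 187, 168, 165 and 147 and the EH samples 283, 246, 264 and 264. The PL samples read 145, 138, 176 and 113 and the PH samples 79.9, 92.8, 88.9 and 87.4. Every array was well above background. All 4 EH samples lay above all EL samples, and all 4 PH samples lay below all PL samples.

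*Tbx3* was 1.59-fold higher in EH than in EL (log2 0.67 ± 0.12, limma adjusted p = 0.00196), with 0.67 on each slide, and 1.62-fold lower in PH than in PL (log2 -0.70 ± 0.12, limma adjusted p = 0.000865). The difference between both was -1.37 on the log2 scale (95% confidence interval -1.72 to -1.01, limma adjusted p = 0.000333). It stayed between -1.47 and -0.93 and past the limit in all 24 alternative settings in which it was computed. In the order EH, EL, PL, PH, the middle pair overlapped (log2 0.23, limma adjusted p = 0.215), and PH was 3.03-fold lower than EH (log2 -1.60 ± 0.12, limma adjusted p = 5.40e-07). Without sample 4 of PL, PL was lower than EL by 0.34 (limma adjusted p = 0.0319).

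**Figure D2:**
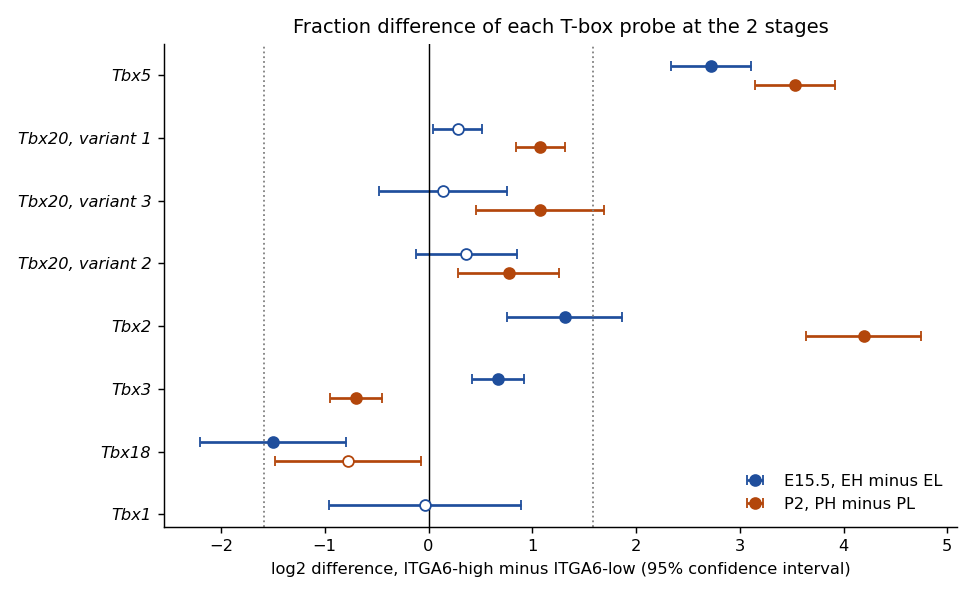
Log2 difference between ITGA6-high and ITGA6-low CMs for the 8 T-box probes at E15.5 (blue) and P2 (orange), with 95% confidence intervals from limma; filled points had an adjusted p of at most 0.05 and dotted lines mark 3-fold. *Tbx3* lies at 0.67 at E15.5 and at -0.70 at P2, *Tbx2* at P2 includes PL signals below background, and *Tbx1* at P2 is left out because both fractions were below background.

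*Tbx18*, known from the sinus venosus and the epicardium, was highest in EL. The EL samples read 250.3, 245, 212 and 272 and the EH samples 114, 81.9, 65.5 and 90.0. The PL samples read 86.4, 59.0, 25.1 and 48.8 and the PH samples 43.3, 20.0, 33.9 and 25.0. Sample 4 of PL and sample 3 of PH were not well above background. EL stood apart from the other groups, each of which overlapped its neighbour in the order EL, EH, PL, PH.

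*Tbx18* was 2.83-fold lower in EH than in EL (log2 -1.50 ± 0.33, limma adjusted p = 0.00993), with -1.46 and -1.80 on the 2 slides. It was 4.87-fold lower in PL than in EL (log2 -2.29 ± 0.33, limma adjusted p = 0.000150) and 2.94-fold lower in PH than in EH (log2 -1.56 ± 0.33, limma adjusted p = 0.00366). At P2 the fractions overlapped (log2 -0.77, 95% confidence interval -1.47 to -0.07, limma adjusted p = 0.187), and without sample 4 of PL the difference was -1.10 (adjusted p = 0.0171). The fraction difference of the stages did not differ at the limit (log2 0.73, 95% confidence interval -0.27 to 1.72, limma adjusted p = 0.625). With normexp background correction it was 0.71 with an adjusted p of 0.0390.

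Markers of the epicardium were lower at P2 than at E15.5, as *Tbx18* was. Of 9 epicardial markers, 8 were well above background on all arrays of a group, the most abundant by its mean log2 signal over the arrays being *Krt19*. *Upk3b* and *Upk1b*, of the epicardial surface, were above background on all EL arrays and on 0 arrays of PL and PH. The summed signal of the 9 genes had a median of 3076 in EL (2930 to 4088) and 1720 in EH (953 to 2745). At P2 it had one of 63.2 in PL (49.3 to 132) and 166 in PH (139 to 225). All 9 were lower in PL than in EL and all 9 lower in PH than in EH at an adjusted p of at most 0.05, while 1 of 9 (*Lrrn4*) was lower in EH than in EL. The 8 fibroblast markers, led by *Col1a2*, summed to medians of 16747 (EL), 9768 (EH), 718 (PL) and 702 (PH). At P2, *Wt1* and *Krt19* were higher in PH than in PL, opposite in direction to *Tbx18*. The part of these cells in the *Tbx18* signal was not tested.

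**Figure D3:**
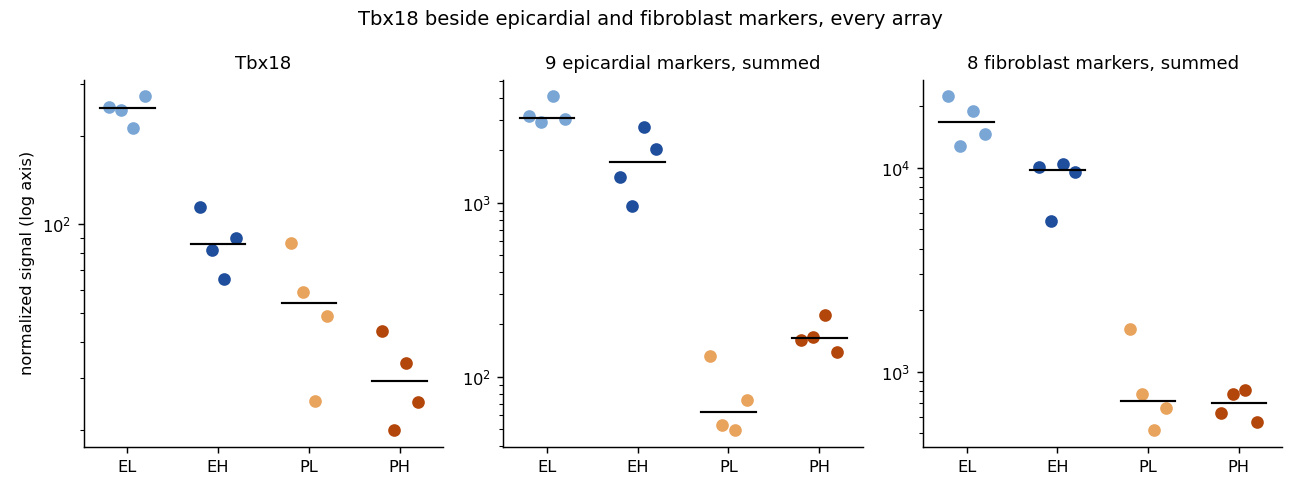
*Tbx18* signal, the summed signal of 9 epicardial markers and that of 8 fibroblast markers (logarithmic axes) in each of the 16 arrays, with lines at the group medians. All 3 were higher in the E15.5 groups than in the P2 groups by their medians, and the epicardial sum was higher in PH (166) than in PL (63.2) where *Tbx18* was not.

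*Tbx1* was near background. The EL samples read 23.4, 46.6, 9.28 and 17.6, of which samples 2 and 3 were well above background, and the EH samples 23.1, 19.0, 14.3 and 25.9, of which all were. PL samples reached at most 9.91 and PH samples 3.42, and none was above background. The E15.5 fractions overlapped (log2 -0.03, 95% confidence interval -0.96 to 0.89). EL and PL overlapped (9.28 in EL against 9.91 in PL), and the mean of EL includes arrays not well above background. By the group means, *Tbx1* was at least 1.06-fold lower in PL than in EL (limma adjusted p = 0.00827) and at least 1.25-fold lower in PH than in EH (limma adjusted p = 0.000685). Both calls were lost with a floor on dim signals (adjusted p = 0.355 and 0.309).

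*Tbx4* and *Tbx15* were not well above background on any of the 16 arrays, like 45.2% of all probes. Their signals ranged from 3.68 to 11.8 and from 3.15 to 7.13, and no difference is given for them. The *Tbx4* and *Tbx2* probes lie 74119 bases apart on chromosome 11.

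Between the stages, 0 of the 10 probes were higher in PL than in EL in limma (1 at an unadjusted p of 0.05, *Tbx20* variant 1, against 14.4% of all probes), where 9.7% of all probes were, and 3 were lower (*Tbx2*, *Tbx18* and *Tbx1*), where 10.0% were. In ITGA6-high cells, 3 were higher in PH than in EH (*Tbx5*, *Tbx20* variant 1 and *Tbx2*), where 9.12% of all probes were, and 3 were lower (*Tbx3*, *Tbx18* and *Tbx1*), where 8.37% were. With the 3-fold limit, *Tbx18* and *Tbx1* were called lower in PL (against 2.15% of all probes) and 0 higher (1.6%), and *Tbx3* and *Tbx1* were called lower in PH (against 2.1%) and 0 higher (1.3%). Without overlap of the arrays, 0 probes were higher in PL (10.4% of all probes) and 2 lower (10.5%), and 4 were higher in PH (14.9%) and 3 lower (9.54%). *Tbx1* was called in both from signals that were not above background at P2, and the *Tbx2* calls in PL against EL and in the difference below use PL signals that were not above background either. Of the difference between the fraction comparisons, 2 probes were positive (*Tbx2* and *Tbx20* variant 1), against 1.81% of all probes, and 1 negative (*Tbx3*), against 1.35%. With the 3-fold limit, 1 was positive (*Tbx2*, a call lost with normexp and its offset and with the floor) and 0 negative, against 0.602% each.

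Of 9 further T-box genes, 4 were well above background on all arrays of a group, namely *Tbx6*, *Tbx10*, *Tbx22* and *Mga*, where 40.0% of all probes were. The summed signal of the 9 had medians of 256 (EL), 333 (EH), 467 (PL) and 315 (PH). *T*, *Tbr1*, *Eomes*, *Tbx19* and *Tbx21* were at background on all 16 arrays. In limma, 0 of the 9 passed an adjusted p of 0.05 in either fraction comparison, in the comparison of the stages within a fraction or in the difference between the fraction comparisons. At an unadjusted p of 0.05, 0 passed between EH and EL (17.9% of all probes did) and 2 between PH and PL (20.5% did) (*Tbx21*, at background, and *Tbx22*), and *Tbx22* alone passed between PL and EL (28.0% did) and in the difference (12.3% did).

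Markers of the tissues in which *Tbx2* and *Tbx3* are best known were examined beside them. Of 6 pacemaker markers, *Hcn4* and *Isl1* were at background on all 16 arrays, and *Shox2* was above it on 1 array of EH alone. The summed signal of the 6 came mostly from *Cacna1g* and had medians of 279 (EL), 382 (EH), 1712 (PL) and 1260 (PH). Of 7 markers of valve and cushion mesenchyme, *Sox9* and *Twist1* were at background on all 16 arrays, and the sum, with *Scx* the most abundant by mean log2 signal, had medians of 2773 (EL), 3031 (EH), 1686 (PL) and 1674 (PH). In this list *Prrx2*, a homeobox gene of mesenchyme, was higher in EH and in PH (log2 0.90 and 2.32), *Scx* was lower in both (-1.57 and -0.73), and *Prrx1* was lower in PH (-2.12). The endothelial genes *Cdh5* and *Emcn* were above background on all 4 EH arrays and on 0 arrays of EL, PL and PH. The summed signal of all 7 endothelial markers, led by *Kdr*, differed less, with medians of 1139 (EL), 1357 (EH), 853 (PL) and 738 (PH). The part of such cells in the *Tbx2* and *Tbx3* signals was not tested. The 8 CM markers were above background on all arrays, and 1 was higher (*Myh6*) and 1 lower (*Actn2*) in EH, and 0 were higher and 2 lower (*Ttn* and *Ryr2*) in PH. Between the stages, 6 of the 8 were higher in PL than in EL and 0 lower (median log2 difference 0.65). In PH against EH, 3 were higher and 0 lower (median 0.33). Their bearing on the stage differences of T-box genes was not tested.

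Of 16 partners of T-box factors, 2 were higher in EH and 4 lower (4.27% and 3.83% of all probes). In PH, 4 were higher and 3 lower (6.15% and 5.41% of all probes). The median log2 difference of the 16 was -0.09 at E15.5 and -0.05 at P2 (-0.02 and -0.01 over all probes). Both genes higher in EH, *Tle3* and *Tle1*, encode corepressors of the Groucho family, which has 4 members on the list. The mean *Tle3* signal was 233 (EL), 1860.2 (EH), 54.2 (PL) and 1349.8 (PH). Its difference was 8.04-fold at E15.5 (log2 3.01 ± 0.17, limma adjusted p = 1.96e-07) and 25.8-fold at P2 (log2 4.69 ± 0.17, limma adjusted p = 9.82e-10), and it was larger at P2 by 1.68 (limma adjusted p = 0.00148). *Tle1* differed in the same direction by 1.14 and 2.06 on the log2 scale, and by more at P2 (0.93, limma adjusted p = 0.00822). *Tle2* did not pass the test at either stage (0.39 and -0.09), and *Tle4* was above background only in EL, on 3 arrays.

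*Nkx2-5*, which binds DNA with TBX5, differed by 0.21 and 0.32 on the log2 scale and did not pass at either stage. *Gata4* was lower in EH by 0.57 and not in PH (-0.02), and the difference between both was past the limit (0.55, limma adjusted p = 0.00293). *Hand2*, a factor of the right ventricle and outflow tract, was lower by 0.52 and 1.39, and by more at P2 (limma adjusted p = 0.0113). *Smarcd3*, a chromatin remodelling subunit that works with TBX5, was higher in PH by 0.80 and not in EH (0.06, limma adjusted p of the difference 0.0156). *Isl1* was at background throughout, and the P2 call of *Hand1* rests on 1 array above background.

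Of 16 chamber genes known to respond to T-box factors, 9 were higher in EH and 2 lower (4.27% and 3.83% of all probes). In PH, 7 were higher and 4 lower (6.15% and 5.41% of all probes). The median log2 difference was 0.60 at E15.5 and 0.43 at P2. These genes were chosen with earlier results of these data known, so the counts describe them and are not a test of the list. *Nppa*, which encodes atrial natriuretic factor, was 20.5-fold higher in EH (log2 4.35 ± 0.30) and 19.7-fold higher in PH (log2 4.30 ± 0.30). *Gja5*, which encodes connexin 40, was 9.66-fold higher in EH and 42.4-fold higher in PH, a stage difference of 2.13 on the log2 scale (limma adjusted p = 0.0330). *Kcnj3* was at least 23.4-fold higher in PH than in PL, and *Bmp10* at least 11.3-fold higher in EH and 20.2-fold higher in PH. *Hey1*, a repressor of the Notch pathway in the atria, was 6.18-fold and 7.10-fold higher.

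Some chamber genes went otherwise. *Hey2*, the ventricular relative of *Hey1*, was lower in both (log2 -4.95 in EH, and at least 14.6-fold in PH). *Pln*, the inhibitor of the sarcoplasmic calcium pump, fell by 1.36 in EH and by 3.20 in PH, and by more at P2 (limma adjusted p = 0.00184). *Myh6* was 3.58-fold higher in EH and level at P2 (log2 -0.09), where its mean was 271280 in PL and 256367 in PH. *Id2*, a target of TBX5 in the conduction system, was level at E15.5 (log2 0.02) and 2.26-fold higher in PH (limma adjusted p = 0.000517). *Gja1*, which TBX2 and TBX3 repress, was lower in PH by 0.67 and did not pass at E15.5 (-0.29, limma adjusted p of the difference 0.393).

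The promoter of *Nppa* is the classic place where TBX5 and the repressors compete. The 250 bases before its RefSeq start site are printed for that reason, with those of *Gja5*, another gene with a large difference, in GRCm38.p6. Capitals mark GGTGTGA or its reverse complement TCACACC, 7 bases of the T-box recognition site, searched on both strands.
*Nppa*, chr4:148000472-148000721, forward strand: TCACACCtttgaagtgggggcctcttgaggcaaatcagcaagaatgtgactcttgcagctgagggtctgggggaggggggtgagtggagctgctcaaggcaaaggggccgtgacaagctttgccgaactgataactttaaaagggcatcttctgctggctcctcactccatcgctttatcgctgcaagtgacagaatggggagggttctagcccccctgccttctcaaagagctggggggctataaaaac
*Gja5*, chr3:97032152-97032401, forward strand: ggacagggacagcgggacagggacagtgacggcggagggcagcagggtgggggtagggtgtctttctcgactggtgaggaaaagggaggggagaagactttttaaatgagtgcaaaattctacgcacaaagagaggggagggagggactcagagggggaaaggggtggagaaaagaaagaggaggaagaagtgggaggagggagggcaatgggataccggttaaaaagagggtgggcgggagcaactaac
*Nppa* held 1 match, in the first 7 bases of the window, and *Gja5* held 0. Of 13 chamber genes with a promoter in the table, *Nppa* was the only one with a match, against 3.84% of all 27025 genes. Counted by promoter, 3.33% of all 32851 held 1. Promoters were given for 4 member genes (*Tbx1*, *Tbx4*, *Tbx18* and *Tbx20*), and 0 held a match. A match describes letters in this window and not a bound site.

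Of 18 genes of the conduction system and the pacemaker, 9 were higher in EH and 0 lower (4.27% and 3.83% of all probes). In PH, 7 were higher and 1 lower (6.15% and 5.41% of all probes). The median log2 differences of the 18 were 0.64 and 0.13. Over the 12 genes that were above background on all arrays of a group, the medians were 1.502 and 1.578. A gene can enter these 12 through the group where it is high, and the values of *Vsnl1* and *Cacna1d* include signals at background. The medians of the 12 are thus no test of the list. Genes that were higher included *Etv1*, a transcription factor of fast conduction (log2 2.71 and 2.22), the calcium channel subunit *Cacna2d2* (2.70 and 3.28), *Cpne5* (3.31 and 3.58) and *Rgs6* (1.32 and 1.36). *Cacna1d*, another calcium channel subunit, was at least 2.35-fold higher in EH and higher by 1.80 in PH. *Vsnl1* was at least 10.3-fold higher in EH and 8.08-fold higher in PH. *Shox2* is counted among the higher genes of EH although only 1 EH array was above background. *Hcn4*, *Isl1*, *Kcne1* and *Cntn2* were at background on all arrays. *Irx3*, a factor of the ventricular conduction system, turned over between the stages as *Tbx3* did (log2 0.91 in EH and -3.97 in PH, limma adjusted p of the difference 2.02e-06).

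**Figure D4:**
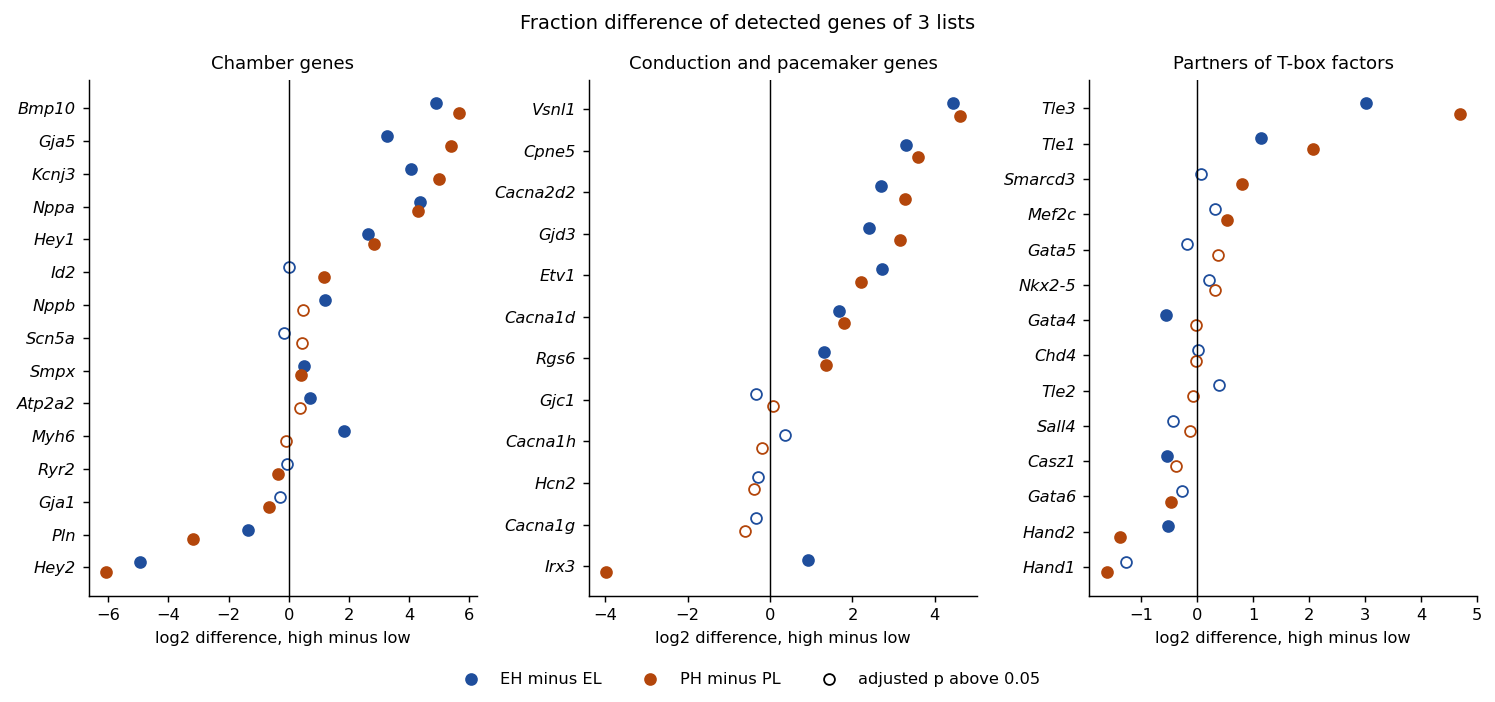
Log2 difference between ITGA6-high and ITGA6-low CMs at E15.5 (blue) and P2 (orange) for the genes of 3 lists that were well above background on all arrays of a group; open points had an adjusted p above 0.05. *Nppa*, *Gja5*, *Kcnj3*, *Bmp10*, *Vsnl1*, *Cpne5* and *Tle3* lie furthest to the right, and *Irx3* lies on opposite sides at the 2 stages. Points of genes given only a bound in the text (*Kcnj3* at P2, *Bmp10* and *Vsnl1* among them) use signals at background. Their distance and order are not measured folds.

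Of 14 signals that act upstream of or beside T-box genes, 5 were higher in EH and 0 lower (4.27% and 3.83% of all probes). In PH, 5 were higher and 2 lower (6.15% and 5.41% of all probes). The median log2 differences of the 14 were 0.40 and 0.02. Over the 7 genes that were above background on all arrays of a group, the medians were 0.46 and 0.75. A gene can enter these 7 through the group where it is high, so the medians of the 7 are no test of the list. The difference between the fraction comparisons passed for 5 of the 14 (2 positive, 3 negative), where 1.81% and 1.35% of all probes passed. *Bmp2*, which induces *Tbx2* in the atrioventricular canal, was higher by 2.34 and 2.57, and *Bmp5* by 1.36 and, against PL arrays that were all at background, at least 1.43-fold. *Bmp4* and *Bmp7* were lower in PH by 1.79 and 1.53 but not in EH (0.46 and 0.09), and both differences between the stages passed the test (limma adjusted p = 0.000263 and 0.000228). *Foxc1* and *Foxc2*, upstream of *Tbx1*, were above background on 3 arrays of EH alone.

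The genes whose log2 signal was most like that of each member over the 16 arrays were named by Pearson's r. The arrays share group differences, so r describes the pattern over the groups. For *Tbx5* they were *Trim11* (r = 0.989), *Ctsc*, *Slc7a7*, *Flrt1* and *Stard10* (0.985). For *Tbx20* variant 1 they were *Podn* (0.963), *Pbxip1*, *Clu*, *Xrcc5* and *Rora*. *Podn* had means of 15.5, 33.5, 65.8 and 4131 in EL, EH, PL and PH, and *Clu* of 4499, 5669, 8024 and 48515. For *Tbx2* they were *Frmpd1* (0.985), *Arhgap31*, *Cacnb3*, *Olfm1* and *Athl1*.

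For *Tbx3* the most similar were *Sdk1* (0.948), *Igfbpl1*, *Bmp4* (0.933), *Slc24a3* and *Arap3*. *Igfbpl1* had means of 422, 774, 378 and 163 in EL, EH, PL and PH. For *Tbx18* they were *Zfp7* (0.972), the growth regulator *Mycn* (0.968), *Stmn4*, *Polq* and *Trio*. *Mycn* had means of 762, 267, 180 and 97.2. For *Tbx1* they were *H6pd* (0.936), *Wfdc2*, *Wnt4*, *Ankrd34a* and *Ece2*. *Tbx1* was well above background on only 6 of the 16 arrays and *Tbx2* on 9, so every r of these 2 genes rests in part on background signals. Among the members, *Tbx5* and *Tbx2* had r = 0.878, *Tbx5* and *Tbx20* variant 1 had 0.760, and *Tbx20* variant 1 and *Tbx3* had -0.734.

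*Tbx3* and *Tbx5* are neighbours on chromosome 5, and their probes lie 199576 bases apart in mm9. Between them lies an interval of probes for intergenic transcripts, chr5:120269342-120279542, picked after its values were seen. Of its 5 probes on the strand of *Tbx5*, 3 were above background on all arrays of a group, and they were so in EH or PH alone, so that their direction follows from this choice. They lie 57007 to 58096 bases from the *Tbx5* probe, towards *Tbx3*. Their means were 26.6, 40.1 and 112 in EH and 114, 149 and 364 in PH, while 0 arrays of EL and PL were above background for any of the 3. Since those EL and PL signals give only a bound, the 3 probes were at least 1.67-fold, 2.62-fold and 7.07-fold higher in EH, and at least 5.26-fold, 6.54-fold and 16.8-fold higher in PH.

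Of the 5 probes on the opposite strand, 3 were also above background on all arrays of a group. One of them was so in EL alone, so that its direction at E15.5 follows from this choice. It was at background in EH and PH, which gives only bounds (lower by at least 3.99-fold at E15.5 and by at least 1.18-fold at P2). The others were above background on all 16 arrays and lower in EH and in PH, with log2 differences of -0.83 and -1.27 at E15.5 and -0.97 and -1.41 at P2. The brightest had means of 810.3 (EL), 338 (EH), 745 (PL) and 279 (PH). A further probe of the opposite strand, 53144 bases from the *Tbx5* probe and assigned to a longer transcript that overlaps the interval, was above background on all 16 arrays and was called at neither stage (log2 -0.06 and 0.20). *Tbx5* spans 88707 bases in GRCm38.p6, more than the distance to these probes, and whether the interval lies inside the longest *Tbx5* transcript was not resolved here.

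**Figure D5:**
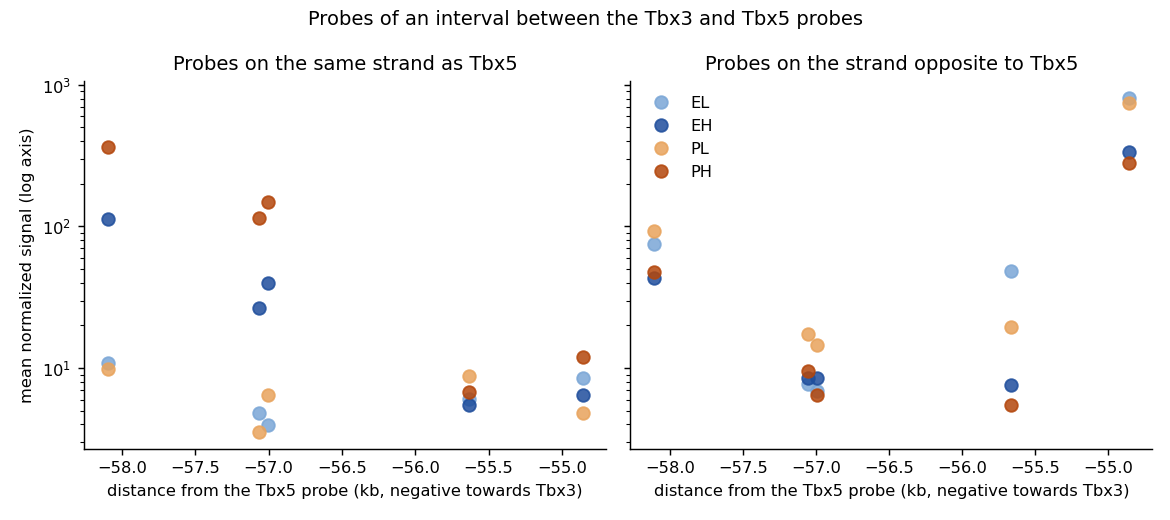
Mean normalized signal (logarithmic axis, n = 4 arrays per group) of the 10 probes of the interval between the *Tbx3* and *Tbx5* probes, by distance from the *Tbx5* probe, for the strand of *Tbx5* (left) and the opposite strand (right). On the left, 3 probes were above background on all arrays of EH or PH and on none of EL or PL. On the right, the brightest probe had means of 810.3 in EL and 338 in EH.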

How the data were processed

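RNA of 16 samples was measured on one-color Agilent arrays, 4 each of EL, EH, PL and PH. The authors deposited 1 scanner table per array, written by Feature Extraction 10.7.3.1 and holding processed, mean and background intensities and detection flags of each spot, and a table of their quantile-normalized log2 values. Processed intensities have the background already subtracted, and the dimmest spots carry surrogate values. The genome build of the probe positions is mm9.

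Control spots and spots marked as outliers were left out, repeat spots were averaged, and quantile normalization over 55681 probes and a log2 transformation followed, the normalization of the study. It forces 1 distribution of signals on all arrays. Means per group were fitted with limma 3.58.1 (R 4.3.3), and p-values were adjusted by Benjamini-Hochberg over all probes. Calls at 3-fold follow the methods' limit. A probe with 0 arrays well above background in the dimmer group has only a bound, set against the lowest signal well above background. A signal above that level can still lack the flag. *Tbx18* in sample 4 of PL, for example, read 25.1 without it, where the lowest flagged signal was 22.7. Every "at least" fold is thus a bound by this convention and not a strict limit. The share of probes well above background per array was 35.7% to 46.5%, and 0 spots were saturated. Python 3.11.15 with pandas 2.3.3, numpy 2.4.6 and matplotlib 3.10.9 made the tables and figures.

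The members and gene lists were chosen with earlier results of these data known. Named were the members, the genes of these lists and the 5 genes most similar to each member. Outside the members, the brightest probe stands for a gene. The lists of cell type markers covered epicardial, fibroblast, valve, smooth muscle, endothelial, leukocyte, erythroid, pacemaker and CM genes, and some listed genes are not reported here. A pairing of the fractions by sample number was looked for in the deviations of arrays from their group means. Same-numbered EL and EH samples correlated with r = 0.255, 0.189, 0.450 and 0.379, all above 0.1, so the numbers pair them, as far as these data show. At P2 they correlated with 0.375, 0.176, -0.03 and 0.542. With 1 of the 4 below 0.1, P2 samples were taken to share only a number, and the labels state a pairing for neither stage. The main fit used no pairing at either stage. The replicate block, an alternative setting, paired same-numbered samples at both stages, P2 included. The labels call the samples biological replicates. Most alternatives changed 1 choice at a time, but normexp came with an offset of 50 added to every signal, and an intensity trend came with a robust prior. The fit was tested on simulated data. Sequences are from the array annotation and RefSeq (GRCm38.p6).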

Additional observations from a re-analysis of the deposited data

Results flagged for a closer look

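For 3 probes the fraction difference itself differed between the stages in a test of that difference (limma, PH against PL minus EH against EL, adjusted over all probes). *Tbx2* differed by 2.88 on the log2 scale (EH over EL 1.31, PH over PL 4.19), but no PL array was above background, so the P2 value is only a bound (at least 5.60-fold), and with a floor on dim signals the difference was 1.18 and no longer passed (adjusted p = 0.0566). *Tbx3* differed by -1.37 (0.67 and -0.70), with the sign turned in all 4 samples of each group. *Tbx20* variant 1 differed by 0.79 (0.28 and 1.08), a call lost with scaling to the 75th percentile (0.76, limma adjusted p = 0.147). Of 29 groups of 4 arrays with a probe above background, 0 held an array far enough from the other 3 to stand out by Dixon's test, where chance would flag about 5% of groups.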

How the results depend on the processing

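The fraction comparisons were run under 9 alternative settings, their difference under 8 (without the methods' test) and the stage comparisons under 7 (without both blocks), and each with every array left out in turn. In all of these, *Tbx5* (EH against EL, PH against PL, PH against EH), *Tbx3* (both fraction comparisons, their difference and PH against EH), *Tbx18* (EH against EL and both stage comparisons) and *Tbx20* variant 1 at P2 kept their direction and stayed past the limit. With scaling to the 75th percentile, the median log2 difference of all probes was -0.18 rather than -0.02 (EH against EL), -0.14 rather than -0.01 (PH against PL), 0.19 rather than 0.01 (PL against EL) and 0.19 rather than 0.03 (PH against EH).

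Settings that treat dim signals differently changed the counts of calls over all probes most. With normexp background correction and its offset of 50 they were 164 higher and 43 lower in EH (654 and 253 as reported), 276 and 142 in PH against PL (966 and 510), 95 and 138 for the difference between both (335 and 335), 208 and 252 in PL against EL (891 and 1198), and 186 and 240 in PH against EH (723 and 1167). With a floor on dim signals they were 422 higher in EH, 573 higher and 312 lower in PH against PL, 573 higher and 601 lower in PL against EL, and 668 lower in PH against EH. At the adjusted p alone, 3 counts moved by over 1.5 times: 5951 rather than 3013 lower in PH against PL with normexp, 649 rather than 1007 positive for the difference with the 75th percentile, and 31704 rather than 5079 higher in PH against EH with the floor. Each array has its own floor, with a mean log2 of 3.55 in EH and 4.0 in PH (3.87 in EL and 4.27 in PL). In PL against EL the floor gave 5014 rather than 5400 higher. The cause of the different counts was not tested.

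Of the T-box probes called with the 3-fold limit, normexp left 1 of 2 in PH against PL, 0 of 1 for the difference, 0 of 2 in PL against EL and 0 of 2 in PH against EH. The floor left 0 of 1 for the difference, 1 of 2 in PL against EL and 1 of 2 in PH against EH. At the adjusted p alone, normexp gave 5 rather than 3 probes for the difference, and the floor 1 rather than 3 in PL against EL. The cause was not tested.

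With 1 array left out, the calls over all probes ranged from 581 to 692 higher and 235 to 270 lower (EH against EL), 947 to 1007 and 491 to 580 (PH against PL), 288 to 356 and 284 to 369 (the difference), 831 to 971 and 1154 to 1262 (PL against EL), and 666 to 761 and 1089 to 1242 (PH against EH). T-box probes past the adjusted p numbered 4 to 4, 4 to 6, 3 to 3, 3 to 4 and 6 to 7 in that order, and those also past 3-fold 1 to 2, 2 to 2, 1 to 1, 1 to 3 and 1 to 3. Without sample 2 of EH, 2 probes passed 3-fold in EH against EL and 1 in PH against EH, and without sample 3 of EL, 1 did in PL against EL.

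Directions turned only for differences within the spread: *Tbx1* in EH against EL (0.054 with the 75th percentile, 0.0044 with normexp, and -0.42 to 0.36 with 1 array left out), *Tbx1* in the difference (0.00066 with normexp), *Tbx20* variant 3 in PL against EL (-0.35 to 0.18 with 1 array left out), and, as the exception with a call, *Tbx2* in PL against EL (0.13 with the floor).

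The replicate block changed the calls of 3 T-box results: *Tbx20* variant 1 in EH against EL passed (0.28, adjusted p = 0.0426), the *Tbx5* difference passed (0.81, adjusted p = 0.0431), and *Tbx20* variant 3 in PH against PL did not (1.07, adjusted p = 0.0504). This block pairs same-numbered samples at both stages, although P2 samples were taken to share only a number. It changed no other T-box call and gave 674 probes higher and 243 lower in EH against EL. Signal over background limits *Tbx2*, *Tbx1* and *Tbx18*.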

Other observations

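Summed signals of further marker lists are given as medians in EL, EH, PL and PH. The smooth muscle and pericyte list, led by *Acta2* in mean log2 signal, gave 59448, 47211, 32537 and 13610, and *Myh11* was at background throughout. Of its 8 genes, 4 were higher in EH (*Pdgfrb*, *Rgs5*, *Kcnj8* and *Tagln*) and 1 lower (*Cspg4*), and 2 were higher in PH (*Cnn1* and *Tagln*) and 2 lower (*Cspg4* and *Acta2*). The leukocyte list, led by *Itgam*, gave 3322, 4796, 8227 and 3440. Of its 5 genes, 2 were higher in EH and 0 lower, and 0 were higher in PH and 1 lower. For the difference between the fraction comparisons, 0 of them were positive and 2 negative. The endothelial list had 0 positive and 2 negative, the smooth muscle and pericyte list 2 and 3, and the epicardial list 3 and 0. *Tbx3* was also negative, but it was highest in EH, and the leukocyte sum was highest in PL. The part of any of these cells in the *Tbx3* signal was not tested. The erythroid list, led by *Hba-a1*, gave 4242, 12467, 552 and 304. The endothelial list, led by *Kdr*, gave 1139, 1357, 853 and 738, and 4 of its 7 genes (*Pecam1*, *Cdh5*, *Emcn* and *Nfatc1*) were higher in EH and 1 (*Nfatc1*) in PH.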
